A study of Homo sapiens with 6 samples.

Results

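The 33 genes described here encode chaperones, folding enzymes, sensors and degradation factors of the endoplasmic reticulum (ER). They were taken by gene symbol from a list of ER chaperones, targets of the stress sensors IRE1 and ATF6, and genes of ER-associated degradation (ERAD). All 33 were found among the 30267 genes of the deposited table, and 32 passed the filter on low values. DERL3, a degradation factor, had 1 to 4 reads in each library and was not tested.

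Secreted and membrane proteins enter the ER through the translocon and are folded there by Hsp70 and Hsp90 family chaperones, by lectins that read the sugar chains, and by protein disulfide isomerases. When unfolded protein builds up, the membrane sensors IRE1, ATF6 and PERK start the unfolded protein response. IRE1, encoded by ERN1, splices the mRNA of the transcription factor XBP1, and ATF6 is cut in the Golgi into an active factor. Both factors raise chaperone and ERAD genes. In ERAD, proteins that cannot be folded are drawn back through the membrane, ubiquitinated and degraded. Cultured carcinoma cells, renal ones among them, express these genes without added stress.

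RNA came from SW839, a cell line established from a renal cell carcinoma, with 3 libraries from cells that carried a hairpin against RNF25 (shRNF25) and 3 from cells with the pLKO vector as control (shControl). RNF25 is an E3 ubiquitin ligase, and its role in cell survival was the question of the study. Both groups were grown in medium with fetal bovine serum, and the labels name no drug for either. The treatment text of each sample, controls included, speaks of a transfected shRNF25 plasmid, so the groups rest on titles, genotypes and library names. The study's methods describe lentiviral delivery and puromycin selection. The 3 shRNF25 libraries share 1 hairpin name, so that an effect of the hairpin apart from its target cannot be told apart from the loss of RNF25. The labels speak of biological triplicates without saying how the cultures were separated, and p-values measure the spread between these libraries.

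The libraries held 18647460 to 19943154 reads on genes. The normalized count, which is the read count divided by a size factor of the library, was 694, 534 and 536 for RNF25 in shControl replicates 1, 2 and 3. It was 214, 246 and 265 in shRNF25 replicates 1, 2 and 3, 41.1% of the control mean (log2 fold change -1.27, standard error 0.150, limma adjusted p = 0.000585). The shControl libraries varied more among themselves, with a biological coefficient of variation of 21.0% against 5.05% in shRNF25. Of 12 renal markers 10 were in the table and none of these was at or under 3 reads in every library. Keratins carried most of their sum, which was 67040 to 86867 in shControl and 78388 to 81905 in shRNF25. Of the 7 renal markers tested, VIM, the intermediate filament vimentin, was higher by both criteria, with 203 to 448 in shControl and 804 to 882 in shRNF25 (log2 fold change 1.31, adjusted p = 0.00805). KRT8 and CDH2 were higher in every shRNF25 library without passing the adjusted p, and KRT19 passed the adjusted p alone, lower (-0.47). The renal transcription factor PAX8 was at 118 to 140.3 in shControl and 76.7 to 109.6 in shRNF25 without passing, and CA9, a marker of clear cell carcinoma, at 7.74 to 50.7 and 1.85 to 8.20. Leukocyte markers summed to 16.2 to 26.7 in shControl and 13.3 to 24.0 in shRNF25, and fibroblast and mural markers, mostly COL1A1, to 1139.9 to 1329 and 907 to 1054. Endothelial markers, mostly PECAM1, summed to 489 to 695 and 494 to 645, with CDH5 at 73.0 to 199 and 3.64 to 8.31 and KDR at 17.3 to 29.8 and 81.3 to 88.4. The part of these markers in the results was not tested.

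Several ER chaperone genes fell after RNF25 knockdown. Of the 10 tested ERAD and translocon genes 0 passed the adjusted p, against 10.8% of all genes that were lower and 10.5% that were higher. So few genes cannot set a count of 0 apart from these shares. The study's criteria, applied to limma's fit, were a Benjamini-Hochberg adjusted p below 0.05 and at least a 1.5-fold difference, and with them 5 of the 32 tested members fell. These were MANF, ERN1, HSP90B1, PDIA4 and HSPA5, at 54.8% to 62.2% of their control means. In the GENCODE 29 annotation of GRCh38, MANF lies at chr3:51385047-51389397 on the plus strand, ERN1 at chr17:64039142-64130819 on the minus strand and HSP90B1 at chr12:103930107-103953645 on the plus strand. PDIA4 lies at chr7:149003062-149028641 and HSPA5 at chr9:125234853-125241330, both on the minus strand. The 5 genes made up 15.6% of the members, against 7.1% of the 16554 genes tested that fell by the same criteria. No member rose by these criteria, against 8.65% of all genes, and none did with edgeR or DESeq2. At an unadjusted p below 0.05 limma gave 14 members lower and 0 higher, against 18% and 17.3% of all genes, and after scaling to total reads it gave 5 lower and 2 higher, XBP1 and DERL1. With that scaling 1459 of the 16554 genes tested were lower and 5001 higher at an unadjusted p below 0.05. In bulk RNA, fewer cells of a type and less RNA per cell cannot be told apart.

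The adjusted p alone was passed by 9 members (28.1%), all of them lower, against 10.8% of all genes that were lower and 10.5% that were higher. The additional 4 were CALR, TXNDC11, HYOU1 and DNAJB11, each with a fold change under 1.5. All 3 shRNF25 libraries lay below all 3 shControl libraries for 17 members (53.1%). The same separation was seen for 21.8% of all genes tested, and the opposite one for 20.7% of genes and for 0 members. For each of these 17 members the two-sided exact permutation test gave p = 0.1, the smallest that 3 libraries against 3 allow. The log2 fold change was below 0 for 29 of the 32 members with the deposited size factors, for 25 after quantile normalization and for 20 after scaling to total reads. Their median was -0.26 with the deposited size factors, with a range of -0.84 to 0.05. Over all tested genes the median was -0.01. Of all tested genes, 51.2% were below 0.

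**Figure D1:**
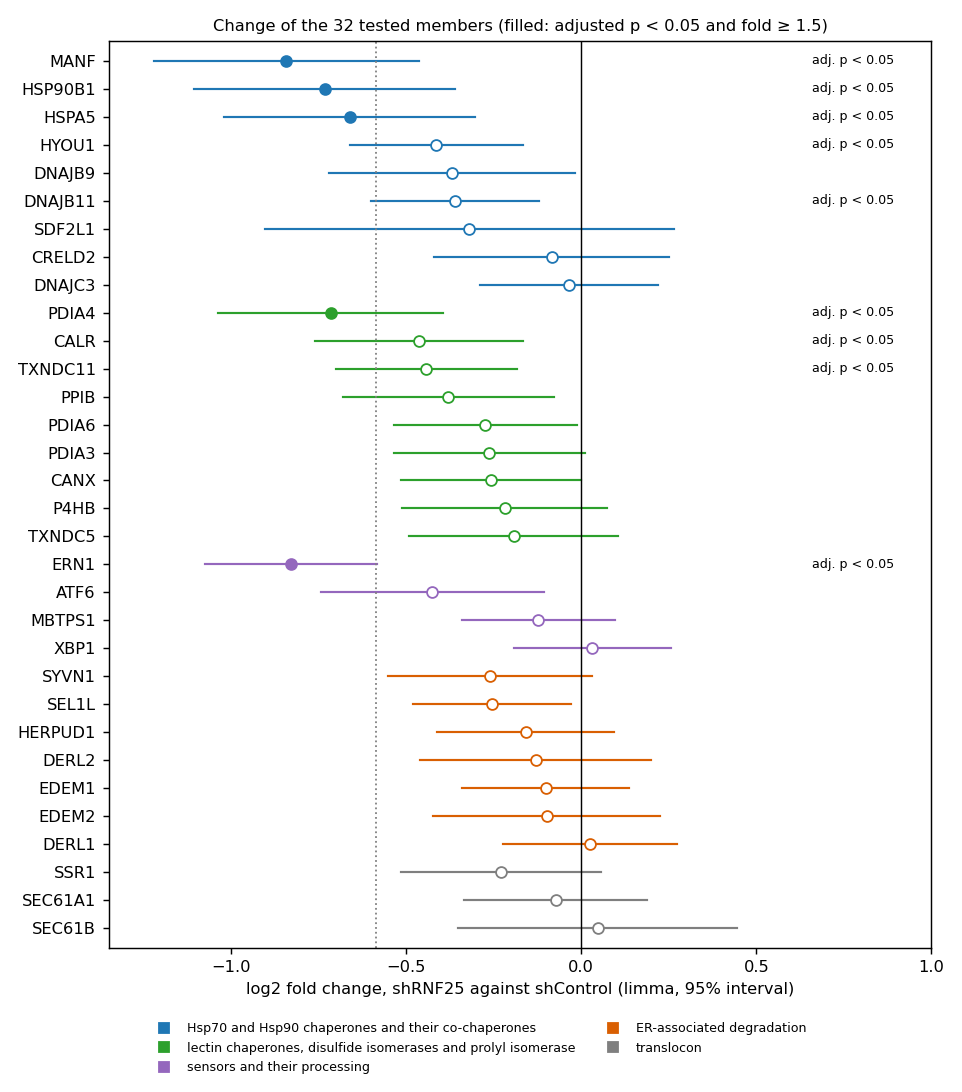
Log2 fold change of each tested member in shRNF25 against shControl (points) with limma's 95% interval (lines), in 5 groups by role. Filled points mark the 5 members past both criteria, the dotted line marks a 1.5-fold decrease, and the intervals of most ERAD and translocon genes include 0.

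The Hsp70 and Hsp90 chaperones and their partners held 3 of the 5 genes that fell. Of the 9 genes in this group 5 passed the adjusted p and all 9 were below 0, although DNAJC3 and CRELD2 turned under other scalings. Of all genes 7.1% fell by both criteria, 10.8% were lower by the adjusted p alone and 51.2% were below 0. The group's median log2 fold change was -0.37. HSPA5 encodes BiP, the Hsp70 of the ER lumen that binds unfolded chains and holds the sensors inactive. Its normalized counts were 23481, 28722 and 18315 in shControl and 14198, 14349 and 15327 in shRNF25, in the order of the replicate numbers. The 3 shRNF25 values were close together and lay below the lowest control, which was replicate 3. The log2 fold change was -0.66 (95% interval -1.02 to -0.30, adjusted p = 0.0177). HSP90B1 encodes GRP94, the Hsp90 of the ER. It had 17846, 13479.9 and 11303 in shControl and 7562, 8686 and 9026 in shRNF25, without overlap and with a wide spread among the controls. Its log2 fold change was -0.73 (95% interval -1.11 to -0.36, adjusted p = 0.0138). MANF encodes a small secreted and ER-resident factor that binds BiP. Its values were 4999, 4071 and 3064 in shControl and 2101, 2411 and 2134 in shRNF25, and the highest shRNF25 value was well under the lowest control. With a log2 fold change of -0.84 (95% interval -1.22 to -0.46, adjusted p = 0.00780), MANF had the lowest estimate of the 32 members.

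The other 6 genes of the group ranged from HYOU1 to DNAJC3. HYOU1, a large Hsp70-like protein that exchanges the nucleotide of BiP, had 11468, 10675 and 9654 in shControl and 7416, 8324 and 8103 in shRNF25 (log2 fold change -0.41, adjusted p = 0.0266). DNAJB11, a J-domain partner of BiP, had 1839, 1614 and 1612 against 1240.1, 1353 and 1348 (log2 fold change -0.36, adjusted p = 0.0403). Both were separated between the groups and passed the adjusted p without reaching 1.5-fold. DNAJB11 shares 7.87% of its exon bases with AC068631.2 on the same strand, and 17.2% of its 50-base stretches of exon sequence also occur there. DNAJB9, a J-domain protein that recruits BiP to IRE1, had 315, 240.1 and 275 in shControl and 239.6, 187 and 214 in shRNF25. Its groups were apart by less than 1 normalized count, and its adjusted p was 0.124. SDF2L1, another BiP partner, had 560.5, 1270.2 and 1004 in shControl and 742, 631 and 785 in shRNF25. Control replicate 1 lay below all other 5 libraries, so that the groups overlapped (log2 fold change -0.32, adjusted p = 0.412). Without that library the log2 fold change was -0.66 and passed both criteria. CRELD2, a stress-induced ER protein, had 801, 1151 and 1024 against 838, 1008 and 937, and its 95% interval ran from -0.42 to 0.25. DNAJC3, an inhibitor of PERK and J-domain partner of BiP, had 777, 658 and 750.1 against 693, 694 and 741 with an interval of -0.29 to 0.22. The groups of both genes overlapped.

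**Figure D2:**
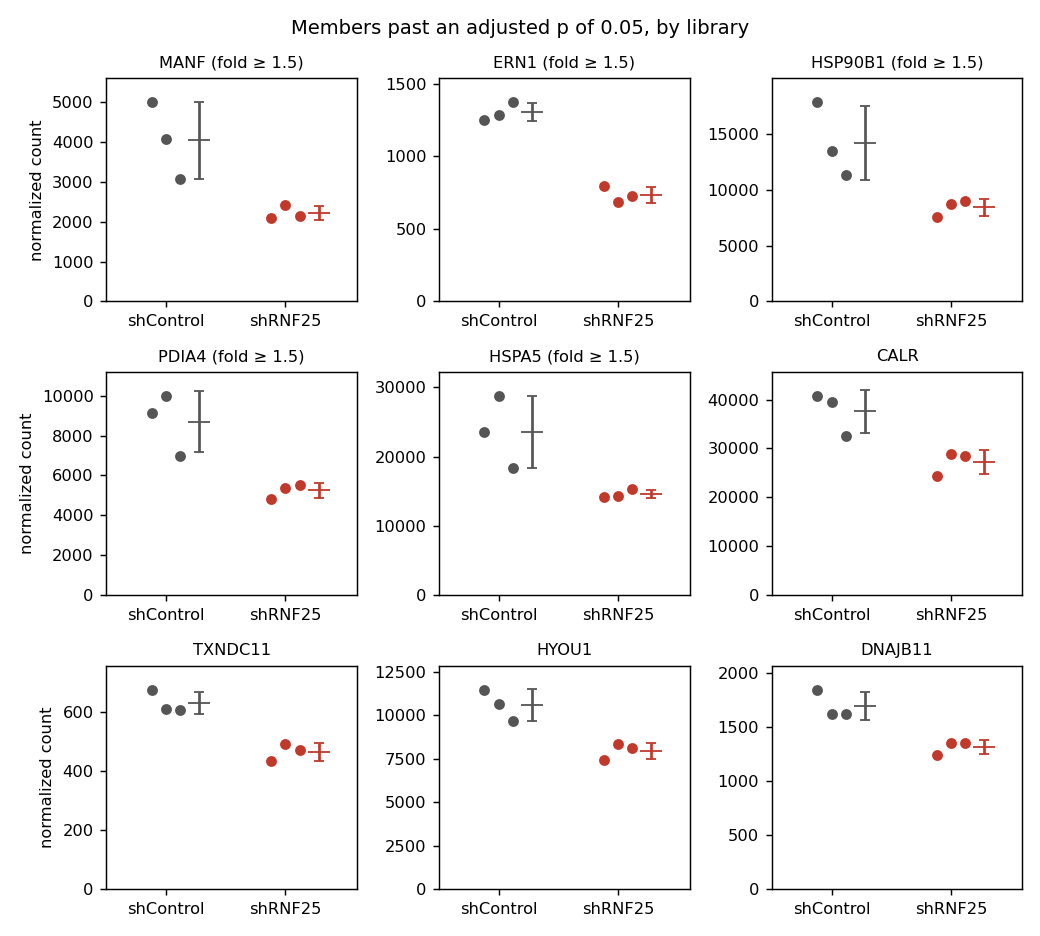
Normalized counts of the 9 members past an adjusted p of 0.05, 1 point for each library, with the mean and SD of each group (n = 3) beside the points. In each panel all 3 shRNF25 points lie below all 3 shControl points, and the SD is larger in shControl.

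Promoter sequence is shown for these genes because ATF6 and XBP1 are known to act through the ER stress response element (ERSE), written as CCAAT and CCACG with 9 bases between. RefSeq promoter windows of 300 bases (250 before to 50 after the start, build GRCh38.p14) were found for 30 of the 33 members. PDIA3, DERL1 and DERL3 were not matched. An exact ERSE on either strand was present for 7 of the 30 members and for 25 of 27305 genes (0.0916%). By windows it was in 27 of 35116 (0.0769%). Of the 5 genes that fell, HSPA5 and HSP90B1 had a match and MANF, PDIA4 and ERN1 had none. CALR, CANX, PDIA6, CRELD2 and XBP1 also had one, and of these CALR passed the adjusted p. The 8 distinct elements are printed 5′ to 3′ along the strand that reads CCAAT first, with CCAAT and CCACG in capitals.
HSPA5: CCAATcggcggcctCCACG
HSP90B1, distal element: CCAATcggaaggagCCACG
HSP90B1, proximal element on the opposite strand: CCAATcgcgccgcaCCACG
CALR, on the opposite strand: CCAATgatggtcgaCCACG
CANX: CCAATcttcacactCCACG
PDIA6: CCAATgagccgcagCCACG
CRELD2, on the opposite strand: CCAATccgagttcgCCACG
XBP1: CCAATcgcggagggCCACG

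The element of HSPA5 ended 48 bases before the start and that of XBP1 ended 34 bases before it. HSP90B1 had elements ending 176 and 71 bases before the start. The full windows of the genes that fell with an element, and of XBP1, which has an element and did not pass the test, are given 5′ to 3′ along the gene, with the element in capitals. For the proximal element of HSP90B1 the capitals show the reverse complement of the sequence above.
HSPA5, chr9:125241294-125241593, minus strand: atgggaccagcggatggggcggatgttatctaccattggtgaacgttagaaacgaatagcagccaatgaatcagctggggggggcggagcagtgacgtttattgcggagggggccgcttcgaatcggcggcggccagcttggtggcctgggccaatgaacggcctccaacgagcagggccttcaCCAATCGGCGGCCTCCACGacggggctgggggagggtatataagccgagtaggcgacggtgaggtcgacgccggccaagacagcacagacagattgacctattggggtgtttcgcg
HSP90B1, chr12:103930160-103930459, plus strand: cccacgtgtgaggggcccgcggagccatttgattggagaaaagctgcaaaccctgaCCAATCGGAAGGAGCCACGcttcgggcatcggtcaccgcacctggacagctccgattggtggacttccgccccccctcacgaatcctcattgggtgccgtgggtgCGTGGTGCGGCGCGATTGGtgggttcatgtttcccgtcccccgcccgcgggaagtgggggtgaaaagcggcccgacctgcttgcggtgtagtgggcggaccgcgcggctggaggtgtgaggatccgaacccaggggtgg
XBP1, chr22:28800520-28800819, minus strand: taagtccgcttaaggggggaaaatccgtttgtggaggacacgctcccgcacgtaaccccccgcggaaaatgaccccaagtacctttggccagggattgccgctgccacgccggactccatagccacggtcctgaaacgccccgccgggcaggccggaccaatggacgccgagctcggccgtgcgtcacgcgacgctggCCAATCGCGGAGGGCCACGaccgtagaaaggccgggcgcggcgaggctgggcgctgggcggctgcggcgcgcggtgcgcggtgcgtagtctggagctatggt

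A related element, ERSE-II, written as ATTGG and CCACG with 1 base between, was found for HYOU1, SDF2L1 and HERPUD1 and for 19 of the 27305 genes (0.0696%). TGACGTGG, a core of the XBP1 and ATF6 element called UPRE, was found for HYOU1, TXNDC5 and TXNDC11 and for 253 genes (0.927%). Both strands were searched, and in HYOU1 the UPRE match overlaps 1 of 2 ERSE-II matches. A match describes the letters of the window and not binding in these cells.

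Among the lectin chaperones, disulfide isomerases and the prolyl isomerase, 1 of 9 genes fell, 3 passed the adjusted p and all 9 were below 0. Of all genes 7.1% fell by both criteria, 10.8% were lower by the adjusted p alone and 51.2% were below 0. P4HB turned with quantile normalization and TXNDC5 with total reads. The group's median log2 fold change was -0.27. PDIA4, a disulfide isomerase of the ER lumen also known as ERp72, had 9133, 9978 and 6987 in shControl and 4834, 5384 and 5532 in shRNF25. Its groups did not overlap and the log2 fold change was -0.71 (95% interval -1.04 to -0.39, adjusted p = 0.00780). CALR encodes calreticulin, the soluble lectin of the ER that also stores calcium. It had 40706, 39541 and 32512 in shControl and 24379.7, 28777 and 28461 in shRNF25, 72.4% of the control mean (log2 fold change -0.46, adjusted p = 0.0351). TXNDC11, a membrane thioredoxin-domain protein, had 675, 612 and 607 against 433, 490.4 and 469.9 (log2 fold change -0.44, adjusted p = 0.0243). CALR and TXNDC11 were lower in every shRNF25 library without reaching 1.5-fold.

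The remaining 6 genes of the group did not pass the adjusted p. CANX, the membrane-bound lectin calnexin, had 12609.8, 10548 and 10200.3 in shControl and 9062, 9655 and 9085 in shRNF25 (adjusted p = 0.141). PDIA3, the disulfide isomerase that works with both lectins, had 11579.5, 9066 and 9531 against 7815, 8750.2 and 8483 (adjusted p = 0.157). PPIB, a prolyl isomerase, had 2251, 3006 and 2584 against 1777, 2067 and 2163 (log2 fold change -0.38, adjusted p = 0.0743). These 3 genes were separated between the groups. PDIA6, which can bind IRE1, had 8222, 8018 and 6603 against 6121, 6075 and 6621 and overlapped by 1 pair of libraries. P4HB, the founding disulfide isomerase and a subunit of prolyl 4-hydroxylase, had 14478, 18460.2 and 18872 against 13856, 14707 and 15719.9, and here control replicate 1 was the low control. TXNDC5, a disulfide isomerase with 3 thioredoxin domains, had 926, 827 and 913 against 657, 876 and 813. PDIA6 shares 25.2% of its exon bases with ATP6V1C2, PPIB 27.2% with SNX22 and PDIA3 14.8% with ELL3, each on the other strand, and whether reads were counted by strand is not given in the sources used here. The partners had mean normalized counts of 22.4 to 48.3. TXNDC5 shares 60.6% of its exon bases with the readthrough gene BLOC1S5-TXNDC5 on the same strand, and its counts are uncertain.

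Of the 4 genes of the sensors and their processing, ERN1 fell and 3 did not pass with limma, with a median log2 fold change of -0.27. Of all genes 7.1% fell by both criteria. ERN1 had 1250.3, 1287 and 1371 in shControl and 795, 682 and 723 in shRNF25, with a tight spread in both groups. The log2 fold change was -0.83 (standard error 0.109, 95% interval -1.08 to -0.58, adjusted p = 0.00107), the smallest adjusted p among the members. XBP1, whose mRNA IRE1 splices, had 1978, 1795 and 1870.4 in shControl and 1924, 2009.5 and 1833 in shRNF25. The groups overlapped, and the interval of -0.19 to 0.26 leaves out a 1.5-fold change in either direction. With scaling to total reads it was at 0.24 (adjusted p = 0.0988). The ratio of ERN1 to XBP1 reads, which no scaling of libraries changes, was 0.632, 0.717 and 0.733 in shControl and 0.413, 0.340 and 0.394 in shRNF25. Every shRNF25 ratio was below every control ratio. Counts per gene do not separate spliced from unspliced XBP1 mRNA, and the activity of IRE1 was not measured.

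ATF6 had 2994, 2305 and 2085 in shControl and 1739, 1935 and 1763 in shRNF25, where the highest shRNF25 library was below the lowest control. The log2 fold change of -0.43 (95% interval -0.74 to -0.11) did not pass with limma (adjusted p = 0.0614) or edgeR (0.0646). The adjusted p was 0.0375 with DESeq2 and 0.0336 with library weights by group, each with a fold under 1.5. MBTPS1, the Golgi protease that makes the first cut in ATF6, had 4275, 4568 and 4143 against 3939, 3883 and 4101. The groups were separated by a small distance (log2 fold change -0.12, adjusted p = 0.400).

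Of the 8 ERAD genes, 7 were tested and 0 passed the adjusted p with limma, edgeR or DESeq2. At an unadjusted p below 0.05 limma gave 1 of them lower, SEL1L, no larger a share than the 18% of all genes. Their median log2 fold change was -0.13. SEL1L and SYVN1 form the ubiquitin ligase complex of ERAD. SEL1L had 1785, 1654 and 1751 in shControl and 1375, 1455 and 1523 in shRNF25 (log2 fold change -0.25, adjusted p = 0.103), with no overlap between the groups. SYVN1, the ligase itself, had 2871, 2142 and 2369 against 2016, 2206 and 1909 with overlap (adjusted p = 0.186), and it shares 7.24% of its exon bases with FAU on the same strand. HERPUD1, a membrane scaffold of the complex and a known target of ER stress, had 1176, 1413 and 1396 in shControl and 1235, 1145 and 1180.0 in shRNF25. Control replicate 1 was within the shRNF25 range (log2 fold change -0.16, 95% interval -0.41 to 0.09). The derlins form the path back through the membrane. DERL1 had 3089, 2748 and 2510.4 against 2703, 2856 and 2907 with an interval of -0.22 to 0.27. DERL2 had 763, 827 and 576 against 652, 674 and 630.1, and its shRNF25 values fell inside the control range. EDEM1 and EDEM2 trim mannose from misfolded glycoproteins and mark them for removal. EDEM1 had 1419, 1577 and 1442 in shControl and 1421, 1274 and 1442 in shRNF25, and EDEM2 had 719.6, 1011 and 984 against 868, 808 and 830.2. Both overlapped between the groups, with intervals of -0.34 to 0.14 and -0.42 to 0.23. DERL3 lies under SMARCB1 on the other strand for 77% of its exon bases, and at 1 to 4 reads a library no difference was detectable.

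The 3 translocon genes did not pass the test either. SEC61A1, the channel subunit, had 5811, 7082 and 7260.3 in shControl and 6175, 6203 and 6696 in shRNF25 (95% interval -0.34 to 0.19). SEC61B, a small subunit of the same channel, had 556, 819 and 861 against 767, 669 and 844, with an interval of -0.35 to 0.45 and control replicate 1 as its lowest library. SSR1, part of the complex that helps signal sequences enter, had 3196, 2370.1 and 2557 against 2197, 2336 and 2335. The highest 2 shRNF25 values of SSR1 lay just under its lowest control (log2 fold change -0.23, adjusted p = 0.227).

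**Figure D3:**
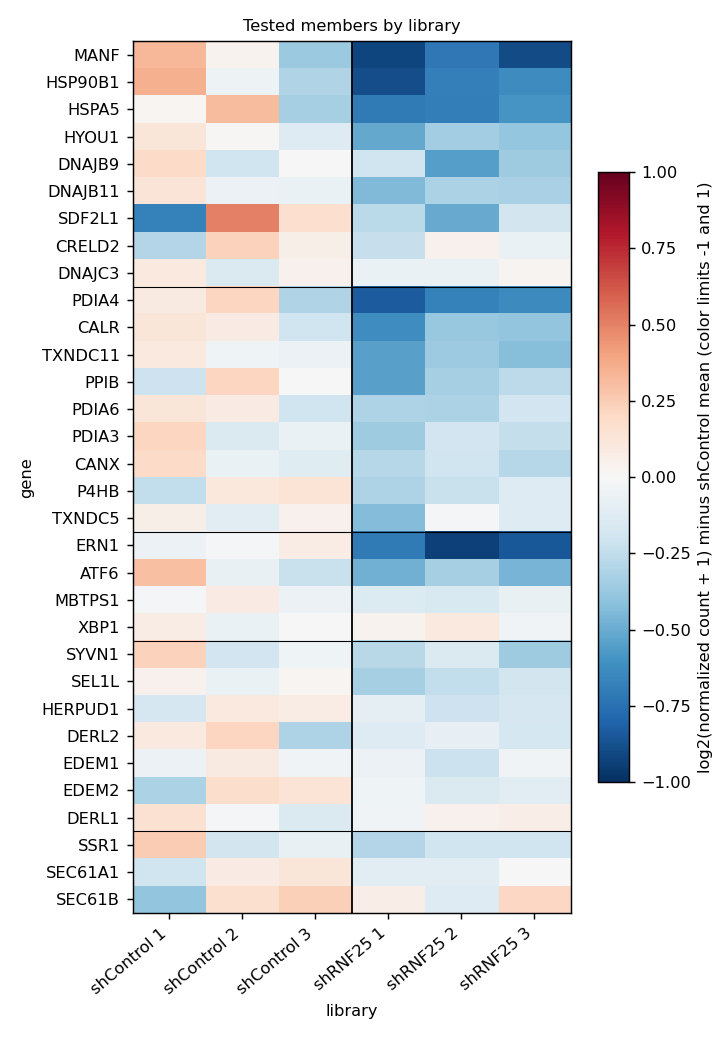
Difference of log2(normalized count + 1) from the shControl mean for the 32 tested members (rows, in 5 groups by role) in each library (columns, shControl left and shRNF25 right), with color limits of -1 and 1. The shRNF25 columns are lowest in the rows of MANF, HSP90B1, HSPA5, PDIA4 and ERN1, and shControl replicate 1 is lowest in the row of SDF2L1.

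The control library with the highest value differed between members, and it was replicate 1 more often than either other replicate. Among the members past the adjusted p, it was replicate 1 for MANF, HSP90B1, CALR, TXNDC11, HYOU1 and DNAJB11. For HSPA5 and PDIA4 it was replicate 2, and for ERN1 replicate 3. Of the other members, SDF2L1 was highest in replicate 2, and P4HB and SEC61A1 in replicate 3. The highest control exceeded the lowest by 1.57-fold for HSPA5, 1.58-fold for HSP90B1, 1.63-fold for MANF and 2.27-fold for SDF2L1, and by 1.10-fold for ERN1 and XBP1. SEC61B followed at 1.55-fold. The highest members per kilobase of exon in shControl were CALR with a normalized count of 13849 per kb, HSPA5 with 6015 per kb, P4HB with 3257 per kb and HSP90B1 with 3027 per kb. ERN1, with 119.9 per kb, was at place 30 of the 33 members. Of the genes that fell, HSPA5 was at place 2, HSP90B1 at 4, PDIA4 at 5 and MANF at 9 in level. All but ERN1 were thus among the 9 highest members, and a relation to level was not tested.

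As a share of reads, the sum over the members was lower in every shRNF25 library than in any control. Together the 33 genes held 0.882%, 0.953% and 0.830% of the reads counted on genes in the shControl libraries, and 0.746%, 0.781% and 0.797% in shRNF25. These shares do not depend on the size factors, and the groups did not overlap. The sum weighs abundant genes most, among them CALR, HSPA5 and HSP90B1, which also passed the adjusted p. Hsp70 and Hsp90 chaperones with their partners held 0.234% to 0.305% in shControl and 0.198% to 0.213% in shRNF25. The lectins, disulfide isomerases and PPIB held 0.441% to 0.493% and 0.390% to 0.426%. The groups overlapped for the sensors, with 0.0471% to 0.0490% in shControl and 0.0464% to 0.0475% in shRNF25. They also overlapped for the translocon genes, with 0.0434% to 0.0531% and 0.0505% to 0.0544%. For the ERAD genes the order was the other way, with 0.0536% to 0.0560% in shControl and 0.0571% to 0.0581% in shRNF25. With total reads as the scale, HERPUD1, DERL2, EDEM1 and EDEM2 had log2 fold changes of 0.049 to 0.11, so that their sign depends on the scaling. The median of all tested genes was 0.19 on that scale, so that a rise in share is common there. Relative to that median, HERPUD1, DERL2, EDEM1 and EDEM2 were at -0.14 to -0.084, and of the tested ERAD genes only DERL1 was above it (0.040).

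The size factors matter here, because the normalized counts of a library summed to more in each shControl library than in any shRNF25 library. Scaling to total reads moved the median log2 fold change of all tested genes by 0.21 and the share of calls that were higher from 54.9% to 77.7%. On that scale MANF (-0.64, adjusted p = 0.0160) and ERN1 (-0.62, adjusted p = 0.00680) still passed both criteria. HSP90B1 (-0.53) and PDIA4 (-0.51) passed the adjusted p alone, and HSPA5 (-0.45, adjusted p = 0.0718) did not pass. Relative to the median of all genes the log2 fold change of HSPA5 was -0.65 with the deposited size factors and -0.65 with total reads. The members' median relative to that of all genes was -0.25 and -0.24. A scaling of whole libraries shifts all genes alike, so that these values are close by construction. Quantile normalization, which forces the libraries to 1 distribution, gave -0.35 for HSPA5, -0.50 for HSP90B1 and -0.12 for CALR relative to the median of all genes. The members' median was then -0.12, and MANF and ERN1 passed both criteria.

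**Figure D4:**
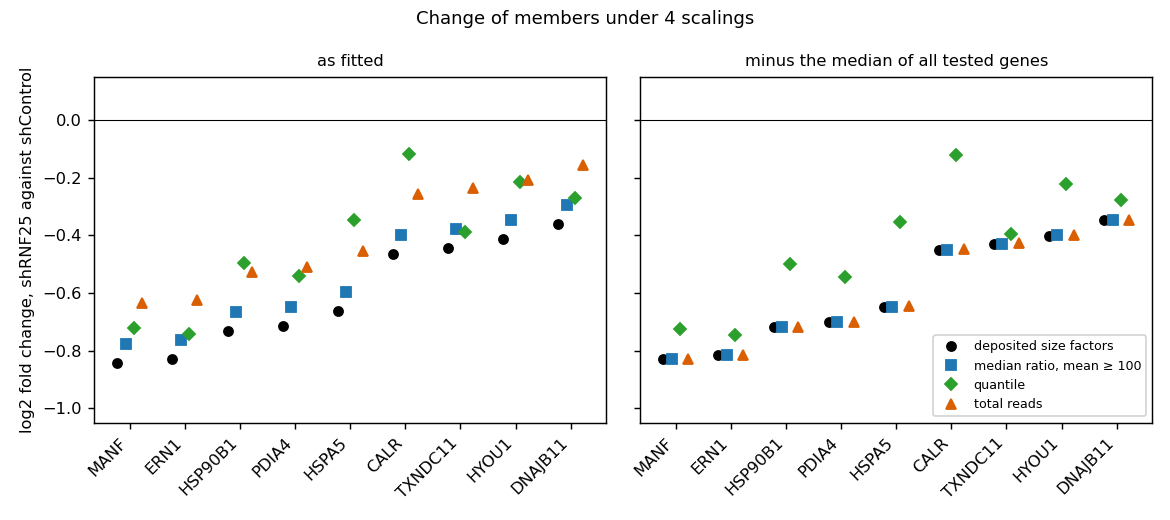
Log2 fold change of the 9 members past an adjusted p of 0.05 under 4 scalings of the libraries, as fitted (left) and after subtracting the median of all tested genes (right). On the right the deposited size factors, the median ratio over abundant genes and total reads coincide, and quantile normalization gives values nearer to 0.

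Other genes of the secretory pathway were read from 10 lists with 200 genes, of which 195 were tested. By both criteria 11 fell (5.64%) and 6 rose, against 7.1% and 8.65% of all genes, and their median log2 fold change was -0.09. By the adjusted p alone 24 were lower (12.3%) and 11 higher, against 10.8% and 10.5% of all genes. All 3 shRNF25 libraries lay below all 3 shControl libraries for 60 of the 195 (30.8%) and above them for 24. The share below was 53.1% for the members and 21.8% for all genes. In glycan transfer 11 of 25 genes lay below and 1 above, and of other ERAD factors 11 of 30 and 2. Of the 195 genes 63.6% had a log2 fold change below 0. By both criteria the PERK arm and integrated stress response list had 0 of 15 tested genes lower and 2 higher, with a median of 0.22. By the adjusted p alone 0 were lower and 3 higher. PHGDH and PSAT1, enzymes of serine synthesis and targets of ATF4, rose, with 2634, 4730.0 and 3496 in shControl and 6714, 5501 and 5937 in shRNF25 for PHGDH (log2 fold change 0.78, adjusted p = 0.0203) and 0.67 for PSAT1 (adjusted p = 0.0246). TRIB3 (0.53, adjusted p = 0.0230) passed the adjusted p alone. The sensor PERK, encoded by EIF2AK3, was at 0.14 (adjusted p = 0.410), ATF4 at -0.19 (adjusted p = 0.202) and DDIT3, the factor CHOP, at 0.34 (adjusted p = 0.184).

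Among the other sensors and transcription factors of the response, 3 of 11 fell and 1 rose, against 7.1% and 8.65% of all genes. CREB3L1, an ATF6-like membrane factor of secretory cells, ranged from 54.4 to 109 in shControl and from 950.3 to 1092 in shRNF25 (log2 fold change 3.68, adjusted p = 1.73e-05). BHLHA15, a known XBP1 target that shapes secretory cells, ranged from 189 to 264 in shControl and from 83.8 to 99.7 in shRNF25 (log2 fold change -1.31, adjusted p = 0.00107). CREB3L2, a close relative of CREB3L1, moved in the opposite direction (log2 fold change -0.89, adjusted p = 0.00162), and WFS1, an ER membrane protein, was the third that fell (-0.62, adjusted p = 0.00513).

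Of 31 other oxidoreductases and folding factors, 1 fell and 1 rose, with a median of -0.09. By the adjusted p alone 4 of the 31 were lower and 2 higher, against 10.8% and 10.5% of all genes. ERO1A, the oxidase that recharges disulfide isomerases, had 8383, 6931 and 7839 in shControl and 4827, 4615 and 4463 in shRNF25 (log2 fold change -0.73, adjusted p = 0.00187). ERP27, a disulfide isomerase relative without catalytic activity that binds PDIA3, rose at few reads, with normalized counts from 3.08 to 11.1 in shControl and from 18.1 to 20.3 in shRNF25. By both criteria the collagen chaperones and hydroxylases had 3 of 14 lower and 1 higher, against 7.1% and 8.65% of all genes. PLOD2, a lysyl hydroxylase, had 5763, 4545 and 4835 in shControl and 2014, 1978 and 1870.2 in shRNF25 (log2 fold change -1.36, adjusted p = 0.000120). P4HA1 and P4HA2, the catalytic partners of P4HB in prolyl hydroxylase, were at -1.30 and -0.99 (adjusted p = 0.000168 and 0.00135), while COLGALT2, a collagen galactosyltransferase, rose (1.61).

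In the remaining lists the median log2 fold change ranged from -0.20 in glycan transfer to 0.053 in the ER-phagy receptors, against -0.26 for the members. By limma's adjusted p alone, 2 of 30 other ERAD factors were lower and 0 higher. The same held for 2 and 0 of 22 genes of ER export. In the other translocon list 4 of 22 were lower and 1 higher, and in glycan transfer 3 of 25 and 1. Of all genes 10.8% were lower and 10.5% higher by the adjusted p alone, and 7.1% fell and 8.65% rose by both criteria. Of 30 other ERAD factors 0 passed both criteria with limma or edgeR, and 1 did with DESeq2, ATXN3. At an unadjusted p below 0.05 limma gave 6 lower and 0 higher, a lower share near the 18% of all genes. After scaling to total reads it gave 0 lower and 7 higher. With that scaling 5001 of all 16554 tested genes were higher, a larger share than 7 of 30, and 1459 were lower. The median was -0.09. Among 22 other genes of the translocon, signal recognition and signal peptidase, SEC61G (-0.62, adjusted p = 0.00765) and SSR3 (-0.62, adjusted p = 0.00385) fell, and their partners SEC61A1, SEC61B and SSR1 did not pass. In glycan transfer and the calnexin cycle 1 of 25 fell, the glucosyltransferase ALG6 (-0.67), and the median was -0.20. ER export and retrieval had 0 of 22 past both criteria with limma, edgeR and DESeq2 and a median of -0.18. At an unadjusted p below 0.05 limma gave 4 lower, again near the 18% of all genes, and 0 higher. After scaling to total reads it gave 2 lower and 5 higher, and the share of higher genes was again below that of all genes. Of 6 ER-phagy receptors RETREG1 rose, with 12.3 to 18.8 in shControl and 30.1 to 34.3 in shRNF25. Among 19 chaperones of the cytosol and mitochondria, which serve other compartments, HSPB1 fell (-1.16, adjusted p = 0.000125) and the median was -0.13. Of these 19 genes 17 were below 0 (89.5%), a share like that of the members (29 of 32), against 51.2% of all genes. By the adjusted p alone 2 were lower with limma and 5 with DESeq2, and 0 higher. At an unadjusted p below 0.05 limma gave 6 lower and 0 higher, and after scaling to total reads 1 lower and 1 higher.

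**Figure D5:**
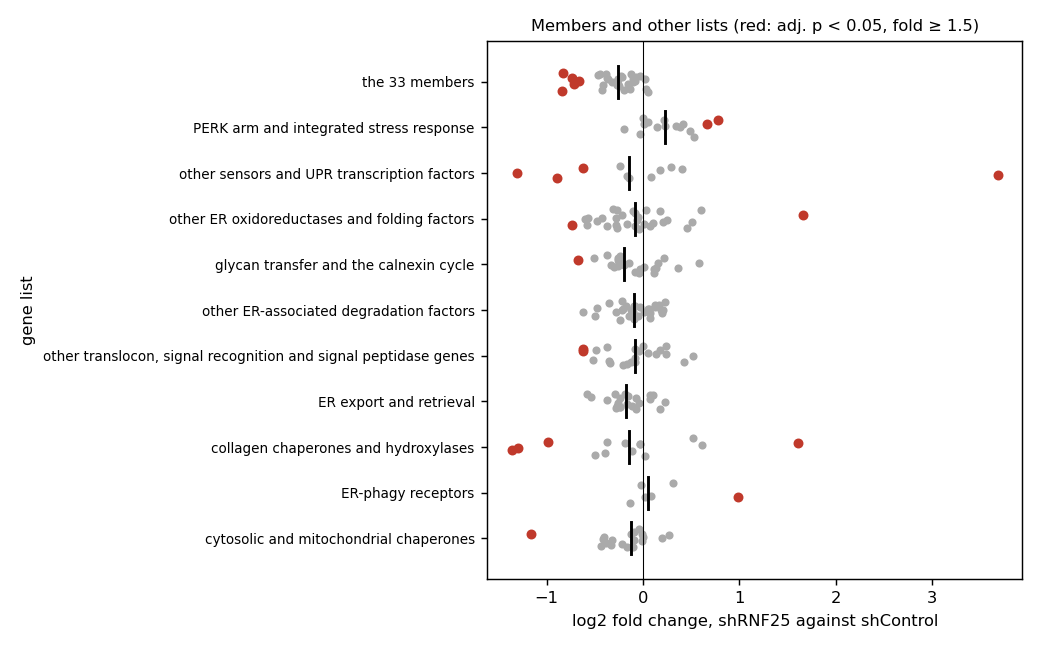
Log2 fold change in shRNF25 against shControl of each tested gene (points) in the 33 members and in 10 other lists of the secretory pathway and chaperones (rows), with the median of each list as a bar. Red points passed both criteria, and the median lay at -0.26 for the members and at 0.22 for the PERK arm and integrated stress response.

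No batch is named in the labels. Library names follow 1 pattern in shRNF25 and several in shControl, so that a batch in step with the knockdown cannot be told apart from it. MANF and ERN1 passed both criteria in all 17 alternative analyses in which single members were tested. PDIA4 passed in 14, HSP90B1 in 12 and HSPA5 in 11 of them. Leaving out shRNF25 replicate 1 left 2 members past both criteria, MANF and ERN1, and leaving out shRNF25 replicate 2 left 3, MANF, PDIA4 and ERN1. HSPA5 kept its direction with any library left out, at -0.83 to -0.50, and its adjusted p or fold missed the criteria without shControl replicate 2 or any of the shRNF25 libraries. In HSPA5 and HSP90B1, 9.54% and 8.12% of the 50-base stretches of exon sequence also occur in other genes, most often in AC105250.1 and HSP90B2P, which had mean normalized counts of 4.32 and 4.64. Protein levels were not measured in these libraries.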

How the data were processed

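Total RNA of SW839 cells was depleted of ribosomal RNA and sequenced from a stranded kit, according to the study's methods. The submitters' processing notes name fastp, HISAT2, HTSeq and GRCh38. The annotation and the strand setting of the counting are not given in the sources used here. The table that the authors deposited holds normalized counts, a signal in which each library's reads are divided by a size factor. Values were whole multiples of 1 read's worth in each library, and whole reads came back for 100% of values (tolerance 0.01 reads). The inverse of that step equaled the median-of-ratios size factor of DESeq2, 0.905 to 1.10. Values of all 6 columns were matched to a sample by library name.

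The deposited values were tested as log2(normalized count + 1), a scale that understates the change of low genes, with limma 3.58.1 (lmFit, eBayes with a trend) in R 4.3.3. Genes with at least 10 in at least 3 libraries were tested (16554 of 30267), with Benjamini-Hochberg adjustment over all of them. Alternatives were edgeR 4.0.16 (TMM, quasi-likelihood test) and, also on recovered reads, DESeq2 1.42.0, pseudocounts of 0.5 and 5, no filter, a minimum of 50, quantile normalization, median ratios restricted to genes averaging at least 100, library weights by group, each library left out, a replicate block, a fold change of at least 2, and the adjusted p alone. Scaling to total reads was added after the data had been seen. Scripts were tested on simulated data, where limma recovered 63 of 100 genes with a true absolute log2 fold change of 1. It recovered 98 of 100 with 2. Smaller changes were not simulated, and a member that did not pass may still have changed.

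The members and gene lists were chosen with earlier results of these data known. Named genes are RNF25, all members, and from each other list up to 2 genes with the greatest change among those past both criteria without overlap. TRIB3, EIF2AK3, ATF4, DDIT3, CREB3L2, WFS1, P4HA1, P4HA2 and ATXN3 and the single markers were named after their values were seen. Exon lengths and overlaps come from GENCODE 29 (GRCh38), matched by symbol, and promoters from RefSeq (GRCh38.p14).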

Additional observations from a re-analysis of the deposited data

How the results depend on the processing

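The 5 members past both criteria were the same genes with edgeR, DESeq2, both other pseudocounts, both other filters, the median ratio over abundant genes, library weights and the replicate block. Lower members numbered 2 after quantile normalization, 2 after scaling to total reads, 0 at a fold of at least 2, 9 by the adjusted p alone, and 2 to 5 with a library left out. No member was higher by the criteria in any of these. HSPA5 no longer passed both criteria without shControl replicate 2 or any 1 of the shRNF25 libraries, HSP90B1 without shControl replicate 1 or shRNF25 replicate 1 or 2, and PDIA4 without shRNF25 replicate 1. Fewer samples enter these fits. The members' median was -0.19 with the median ratio, -0.11 after quantile normalization and -0.051 with total reads. In the other lists, lower genes numbered 7 (quantile), 6 (total reads), 4 (fold of at least 2) and 24 (adjusted p alone), and higher genes 15 (total reads), 3 (fold of at least 2), 11 (adjusted p alone) and 2 to 7 with a library left out. Over all genes, lower calls numbered 684 (total reads), 513 (fold of at least 2) and 1785 (adjusted p alone), and higher calls 898 (minimum of 50), 2377 (total reads), 893 (fold of at least 2) and 748 to 1725 with a library left out, the lowest without shRNF25 replicate 1.

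No member past both criteria changed direction. Signs of members near 0 turned with the median ratio for DNAJC3 (0.031), with quantile normalization for DNAJC3 (0.043), P4HB (0.090), MBTPS1 (0.021) and SEC61A1 (0.13), and with total reads for DNAJC3 (0.17), CRELD2 (0.12), TXNDC5 (0.014), MBTPS1 (0.085), HERPUD1 (0.049), DERL2 (0.076), EDEM1 (0.11), EDEM2 (0.11) and SEC61A1 (0.13). With a library left out, the range was -0.11 to 0.014 for DNAJC3, -0.15 to 0.16 for SEC61B, -0.23 to 0.030 for CRELD2, -0.0017 to 0.068 for XBP1 and -0.047 to 0.10 for DERL1. Scaling moves all genes together, and the cause of the other changes was not tested. The replicate numbers did not pair the samples, since same-numbered libraries correlated at -0.06, -0.09 and 0.05 in their deviations from the group means, and no library of shControl correlated best with its own number. The replicate block left 5 members lower and gave 1193 lower and 1398 higher genes. Among the members, depth limits DERL3, with 1 to 4 reads in each library.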
